A study of Homo sapiens with 16 samples.

Results

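Condensin is the ring-shaped protein complex that folds chromosomes into compact rods for mitosis. The transcripts of its 8 subunits are described here in 2 human cancer cell lines exposed to palbociclib, indisulam or both. The members were all subunits of condensin I and condensin II, found by gene symbol among the 58676 Ensembl gene identifiers of the count files. The family was chosen by the fold change of NCAPH, among the largest falls with the combination in A549, so the change of all 8 members in that comparison is given as a description without a test. The same holds for NCAPH wherever a comparison used the A549 combination libraries. Tests of NCAPH that use the untreated A549 libraries share these with the comparison that chose it, which favours a large fall in A549, so their p-values are not independent of the choice. The other members followed NCAPH across the libraries. Their p-values from the untreated or combination libraries of A549 are therefore not fully independent of the choice either.

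RNA was sequenced from A549, a lung cancer line, and SUM159, a triple-negative breast cancer line. Each line was left untreated (UT), was given 2 µM palbociclib (PD), 3 µM indisulam (IN) or both at these doses (P+I), for 16 h, with 2 libraries per group and 16 in all. Palbociclib blocks CDK4 and CDK6, the cyclin-dependent kinases that free E2F transcription factors from RB. Indisulam is a sulfonamide that brings the splicing factor RBM39 to the DCAF15 ubiquitin ligase for degradation. The series describes the duplicates as technical, so each p-value measures the spread between these libraries and does not cover the variation between independent cultures. The labels give no genetic change in any group and no vehicle for the untreated cells.

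Both condensins share SMC2 and SMC4, a pair of ATPases whose coiled coils form the arms of the ring. Condensin I adds the kleisin NCAPH, which closes the ring, and the HEAT-repeat proteins NCAPD2 and NCAPG. Condensin II has the paralogous kleisin NCAPH2 with NCAPD3 and NCAPG2. Condensin II resides in the nucleus through interphase and acts from prophase, whereas condensin I reaches chromosomes after the nuclear envelope breaks down. In cycling cells the transcripts of many of these subunits rise towards mitosis.

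On GRCh38 with GENCODE release 44, SMC2 (ENSG00000136824) lies at chr9:104094260-104141419 on the plus strand, with 25 exons in its longest transcript. SMC4 (ENSG00000113810) has 23 exons at chr3:160399274-160434954, also on the plus strand. The condensin I genes are NCAPD2 (ENSG00000010292, chr12:6493356-6531955, 32 exons), NCAPG (ENSG00000109805, chr4:17810979-17844865, 21 exons) and NCAPH (ENSG00000121152, chr2:96335766-96377091, 18 exons), each on the plus strand. The condensin II genes are NCAPD3 (ENSG00000151503, chr11:134150113-134225504, minus strand, 34 exons), NCAPG2 (ENSG00000146918, chr7:158631169-158704804, minus strand, 28 exons) and NCAPH2 (ENSG00000025770, chr22:50508224-50524780, plus strand, 20 exons).

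Promoter windows, from 250 bases before to 50 bases after the start of a gene, were matched in RefSeq on GRCh38.p14 for 7 of the 8 genes, in 10 windows. The 120 bases before the start are printed for the 3 genes with the largest falls in A549 with both drugs: NCAPH, the condensin I kleisin, its HEAT-repeat partner NCAPG, and NCAPG2, the condensin II paralog of NCAPG. They are NCAPH at chr2:96335646-96335765 on the plus strand, NCAPG at chr4:17810859-17810978 on the plus strand and NCAPG2 at chr7:158704805-158704924 on the minus strand, written 5′ to 3′ with matches to the searched letters in capitals.
NCAPH: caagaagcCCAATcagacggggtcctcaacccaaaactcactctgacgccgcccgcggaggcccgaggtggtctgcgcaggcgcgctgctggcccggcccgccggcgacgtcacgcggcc
NCAPG: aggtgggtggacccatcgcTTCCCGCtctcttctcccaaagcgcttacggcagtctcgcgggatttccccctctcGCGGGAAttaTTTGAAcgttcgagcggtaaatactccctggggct
NCAPG2: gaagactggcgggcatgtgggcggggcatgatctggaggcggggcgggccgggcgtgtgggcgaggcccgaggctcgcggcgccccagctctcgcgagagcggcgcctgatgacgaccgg

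The letters searched on both strands were TTTGAA and TTCGAA (the cell cycle genes homology region and a variant), CCAAT, and TTCCCGC and TTTGGCGC (E2F sites). TTTGAA was found in 6 of the 10 windows, 1 in each of 6 genes, against 15.2% of 34943 windows of the same length. NCAPH was the gene with a window but without TTTGAA, and in NCAPG2 these letters lay 35 bases after the start. CCAAT was in the windows of NCAPD2, NCAPH and NCAPD3, against 34.65% of all windows. TTCCCGC was in those of NCAPG, with 2 copies, and NCAPD3, against 6.545%. TTCGAA and TTTGGCGC were in none of the 10, against 1.451% and 0.6496%. No 2 of these letter strings overlapped in the printed sequences. These matches describe the letters only.

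Gene counts per library ran from 18306636 to 34075588, so that 3 counts corresponded to 0.0880 to 0.164 CPM, a measure of reads per gene relative to the size of the library. This floor uses total gene counts, whereas the CPM of genes use library sizes scaled within each line. Members had between 88 (NCAPH) and 12029 (SMC4) counts in a library, and all 8 passed the filter on low counts in both lines. A549 libraries held the epithelial transcripts EPCAM at 20.3 to 26.1 CPM and CDH1 at 54.1 to 101 CPM. The keratins KRT8, KRT18 and KRT19 were at 4809 to 7047, 4081 to 6902 and 101 to 167 CPM. The mesenchymal transcripts VIM, FN1 and ZEB1 were also present, at 699 to 930, 277 to 385 and 32.4 to 36.8 CPM. Of the lung markers, NKX2-1 and SFTPC stayed under 0.43 CPM, SFTPB had 0 counts and NAPSA was at 0.368 to 1.13 CPM. SUM159 libraries had VIM at 2755 to 4144 CPM, EPCAM and CDH1 at no more than 0.600 and 0.589 CPM, and the receptor genes ESR1 and PGR at no more than 0.796 and 0.0401 CPM, with ERBB2 at 98.4 to 145 CPM. FN1 was at 1797 to 2874 CPM and ZEB1 at 45.4 to 66.7 CPM in SUM159. Its libraries also held the epithelial keratins KRT8 at 533 to 792 CPM and KRT18 at 326 to 450 CPM, with KRT19 at no more than 0.682 CPM. CDKN2A, which A549 is known to have lost, was counted 24 to 56 times per A549 library (1.35 to 2.48 CPM) and 0 to 1 times per SUM159 library. These counts go against that description of A549. The paper also reports a rise of p16, a protein made from CDKN2A, in SUM159 after longer treatment at other doses. The reason for these discrepancies was not tested, and the lines are named here as labelled. Exons of 5 members overlap those of another gene, most of all NCAPG (33.7% with LCORL, opposite strand), SMC4 (19% with TRIM59, opposite strand) and NCAPH2 (19.2% with SCO2 on the opposite strand and 19.2% with a lncRNA on its own). The strand setting of the counting is not given in the sources used here. The neighbours are counted genes themselves, and 4.38% to 5.62% of reads per library were set aside as ambiguous. Reads in the shared exons of these members, and of NCAPD2 and NCAPD3, may thus have been left out as ambiguous. Whether any reads of neighbours were counted for the members cannot be told. SMC2, NCAPH and NCAPG2 have no such overlap.

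**Figure D1:**
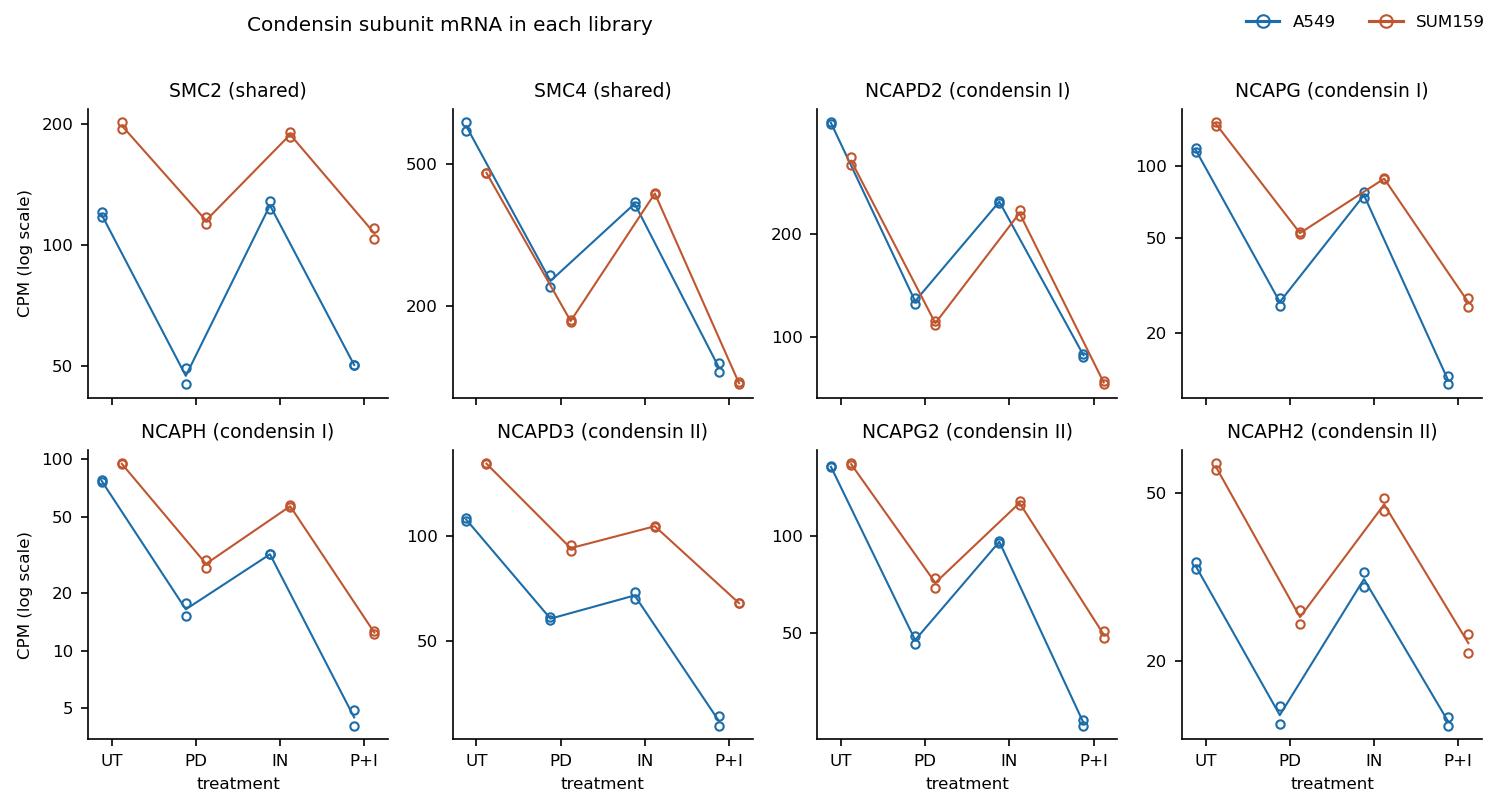
Level of each condensin subunit in every library, as CPM on a log axis that differs between panels, by treatment (UT untreated, PD palbociclib, IN indisulam, P+I both). Circles are libraries and lines join the group means. The CPM of each line were scaled apart from those of the other. NCAPH fell from 75.7 to 77.8 CPM in untreated A549 to 4.05 to 4.92 CPM with both drugs, while SMC2 with both drugs lay beside its level with palbociclib alone.

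NCAPH is the kleisin that holds condensin I together. In A549 it had 77.8 and 75.7 CPM in the untreated libraries, 15.1 and 17.7 CPM with palbociclib, 31.7 and 31.9 CPM with indisulam and 4.05 and 4.92 CPM with both. In SUM159 the values were 94.5 and 93.8 CPM untreated, 29.7 and 26.9 CPM with palbociclib, 56.0 and 57.2 CPM with indisulam and 12.2 and 12.6 CPM with both. The 4 groups did not overlap in either line, and their order was the same: untreated, indisulam, palbociclib, combination. The share of all genes whose 4 groups separate was not computed, so here and below such separation only describes the values. For untreated and combination A549 alone, both combination libraries lay below both untreated ones for 39% of genes. The mean left with both drugs was 5.84% of untreated in A549 and 13.2% in SUM159.

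NCAPG, a HEAT-repeat subunit of condensin I, had 114 and 119 CPM in untreated A549, 28.0 and 25.9 CPM with palbociclib, 73.1 and 77.5 CPM with indisulam and 12.2 and 13.2 CPM with both. In SUM159 it had 147 and 152, 53.0 and 51.6, 88.6 and 87.9, and 27.9 and 25.8 CPM in the same order of treatments. As for NCAPH, no group overlapped another within a line. NCAPD2, the other HEAT-repeat subunit of condensin I, had 422 and 427 CPM in untreated A549, 125 and 130 CPM with palbociclib, 248 and 251 CPM with indisulam and 87.4 and 89.3 CPM with both. In SUM159 NCAPD2 went from 320 and 337 CPM through 111 and 108 CPM with palbociclib and 226 and 236 CPM with indisulam to 74.5 and 72.6 CPM with both. Its groups were also separate, with the same order as those of NCAPH.

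Among the shared ATPases, SMC4 had 622 and 657 CPM in untreated A549, 244 and 227 CPM with palbociclib, 393 and 382 CPM with indisulam and 131 and 139 CPM with both. In SUM159 SMC4 had 473 CPM in both untreated libraries, 181 and 182 CPM with palbociclib, 416 and 412 CPM with indisulam and 121 and 123 CPM with both. Its groups did not overlap. Its partner SMC2 took another course. In A549 SMC2 had 117 and 120 CPM untreated, 49.4 and 44.9 CPM with palbociclib, 122 and 128 CPM with indisulam and 50.3 and 50.2 CPM with both. In SUM159 it had 194 and 202 CPM untreated, 117 and 113 CPM with palbociclib, 191 and 185 CPM with indisulam and 103 and 110 CPM with both. With indisulam SMC2 thus stayed near its untreated level, and with both drugs near its level with palbociclib.

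NCAPH2, the kleisin of condensin II, had the lowest CPM of the 8 in untreated cells. In A549 it had 33.0 and 34.3 CPM untreated, 14.2 and 15.7 CPM with palbociclib, 30.0 and 32.6 CPM with indisulam and 14.1 and 14.8 CPM with both. In SUM159 it had 56.7 and 58.7, 24.5 and 26.4, 45.3 and 48.7, and 20.9 and 23.2 CPM. In A549 the palbociclib and combination libraries overlapped, whereas in SUM159 they did not.

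NCAPG2 and NCAPD3 are the HEAT-repeat subunits of condensin II. NCAPG2 had 163 and 164 CPM in untreated A549, 48.8 and 46.2 CPM with palbociclib, 95.1 and 96.4 CPM with indisulam and 26.9 and 25.7 CPM with both, and in SUM159 it went from 167 and 166 CPM through 74.0 and 68.8 CPM and 128 and 124 CPM to 48.2 and 50.6 CPM. NCAPD3 had 110 and 113 CPM in untreated A549, 58.6 and 57.2 CPM with palbociclib, 65.8 and 69.3 CPM with indisulam and 28.5 and 30.4 CPM with both. In SUM159 NCAPD3 went from 161 and 162 CPM through 90.5 and 94.3 CPM and 106 and 107 CPM to 64.3 and 64.1 CPM. No groups of these genes overlapped within a line, which is a description without the share over all genes. NCAPD3 was the member whose level with palbociclib was closest to its level with indisulam, at 51.9% and 60.5% of untreated in A549 and 57.2% and 66.1% in SUM159.

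To compare the subunits with each other, CPM was divided by the length of the union of exons in kilobases (CPM per kb). On this scale untreated A549 had the order SMC4 (78.3 ± 3.11 SD, n = 2), NCAPD2 (65.6 ± 0.584), NCAPG (24.1 ± 0.737), NCAPG2 (23.0 ± 0.134), SMC2 (18.4 ± 0.320), NCAPH (11.7 ± 0.224), NCAPH2 (7.54 ± 0.198) and NCAPD3 (5.97 ± 0.0847). Untreated SUM159 had the same first and last members, with SMC4 at 57.9 ± 0.0474 and NCAPD3 at 8.65 ± 0.0174 CPM per kb. NCAPG and SMC2 were the only neighbours in these orders, over the 8 groups, whose libraries overlapped, in untreated SUM159 at 30.9 ± 0.815 and 30.6 ± 0.931 CPM per kb. NCAPH was last in the palbociclib and combination groups of both lines, at 0.685 ± 0.0944 CPM per kb in A549 and 1.90 ± 0.0469 in SUM159 with both drugs. SMC4 was first in 7 of the 8 groups, and SMC2 was first in SUM159 with both drugs, at 16.5 ± 0.733 against 14.9 ± 0.167 CPM per kb. With the longest transcript as the length, SMC4 was first there too, at 22.7 against 17.8 CPM per kb, and some neighbours further down changed places. In untreated A549 NCAPH2 was then last, at 10.1 CPM per kb against 10.7 for NCAPD3, and NCAPG2 (31.1) came before NCAPG (25.4). NCAPD3 stayed last in untreated SUM159. Exons shared with other genes, as in NCAPG, SMC4 and NCAPH2, stay in these lengths, though their reads may have been left out as ambiguous. Whether this changes the order, or the level of the paralog ratios below, was not tested.

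Palbociclib lowered every subunit in both lines. In A549, 8 of 8 members were called lower (adjusted p under 0.05, edgeR), against 21.1% of the 15744 genes tested, with a median log2 change of -1.59 against 0.03 over all genes. These values share the untreated libraries with the comparison that led to NCAPH. The largest falls were those of NCAPH (-2.21, SE 0.0747, adjusted p = 6.75e-12) and NCAPG (-2.12, SE 0.0595, adjusted p = 8.00e-13), and the smallest those of NCAPD3 (-0.95, SE 0.0504) and NCAPH2 (-1.16, SE 0.0770). The rule that chose the members used no SUM159 library, but earlier results of these data were known when the members and the lists below were chosen. In SUM159 8 of 8 were again called lower, against 29% of 16080 genes. The median log2 change was -1.30, against 0.02 over all genes. NCAPH had the largest fall (-1.74, SE 0.0533, adjusted p = 6.43e-14), followed by NCAPD2 (-1.58, SE 0.0403) and NCAPG (-1.52, SE 0.0450), all of condensin I. SMC2 had the smallest (-0.78, SE 0.0424, adjusted p = 8.74e-11). The condensin I subunits had medians of -2.12 in A549 and -1.58 in SUM159, and the condensin II subunits -1.16 and -1.18.

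A list of 10 transcripts that mark proliferating cells, among them MKI67, CCNA2 and the replication protein gene PCNA, moved the same way. With palbociclib all 10 were called lower in both lines, with medians of -2.17 in A549 and -1.61 in SUM159. Their summed level was 2567 to 2682 CPM in untreated A549 and 635 to 646 CPM with palbociclib, and 2494 to 2567 against 766 to 784 CPM in SUM159. None was at 0, and the lowest value of any of them was 13.1 CPM. Their part in the condensin result was not tested, and in bulk RNA a smaller share of cycling cells and less transcript per cell cannot be told apart.

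With indisulam alone fewer subunits were called, and the medians lay nearer to 0. In A549, 6 of 8 members were called lower and 0 higher, against 25.9% and 23.3% of genes, with a median log2 change of -0.72 against 0.01 over all genes. NCAPH fell by 1.27 on the log2 scale (SE 0.0701, adjusted p = 3.64e-09), again against the untreated libraries that had a part in its choice. NCAPG2, NCAPD2, NCAPD3, SMC4 and NCAPG had changes of -0.77 to -0.63. SMC2 (0.08, SE 0.0501, 95% CI -0.03 to 0.18, adjusted p = 0.225) and NCAPH2 (-0.10, SE 0.0717, 95% CI -0.26 to 0.05, adjusted p = 0.248) did not pass the threshold. The intervals of these 2 genes lay above the estimates of the other 6.

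In SUM159, indisulam lowered 7 of 8 members, against 24.9% of genes, with a median log2 change of -0.45 against 0.01 over all genes. NCAPG (-0.76, SE 0.0432, adjusted p = 6.98e-10) and NCAPH (-0.73, SE 0.0497, adjusted p = 4.96e-09) led, followed by NCAPD3 (-0.60), NCAPD2 (-0.51) and NCAPG2 (-0.40). NCAPH2 (-0.29, SE 0.0593, adjusted p = 0.000624) and SMC4 (-0.19, SE 0.0327, adjusted p = 0.000139) fell least among those called. SMC2 was at -0.07 (95% CI -0.16 to 0.01, adjusted p = 0.155), so it was the member without a call in both lines. The proliferation list lay nearer to its untreated level than with palbociclib, with 8 of 10 lower and 1 higher in A549 (median -0.27, summed level 2277 to 2288 CPM) and 7 lower and 2 higher in SUM159 (median -0.18, summed level 2195 to 2220 CPM). In A549 the condensin median of -0.72 therefore lay below that of the proliferation list, and 6 of the 8 members had larger falls than any of its 10 genes, whose lowest value was -0.37. In SUM159 the lowest gene of the list was at -0.61, and 2 of the 8 members, NCAPG and NCAPH, had larger falls. No test of these differences was made. The A549 values share the untreated libraries with the comparison that led to NCAPH, whose combination includes indisulam. The choice thus favours larger A549 falls of NCAPH and of members that followed it, so the comparison with the list only describes the values.

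**Figure D2:**
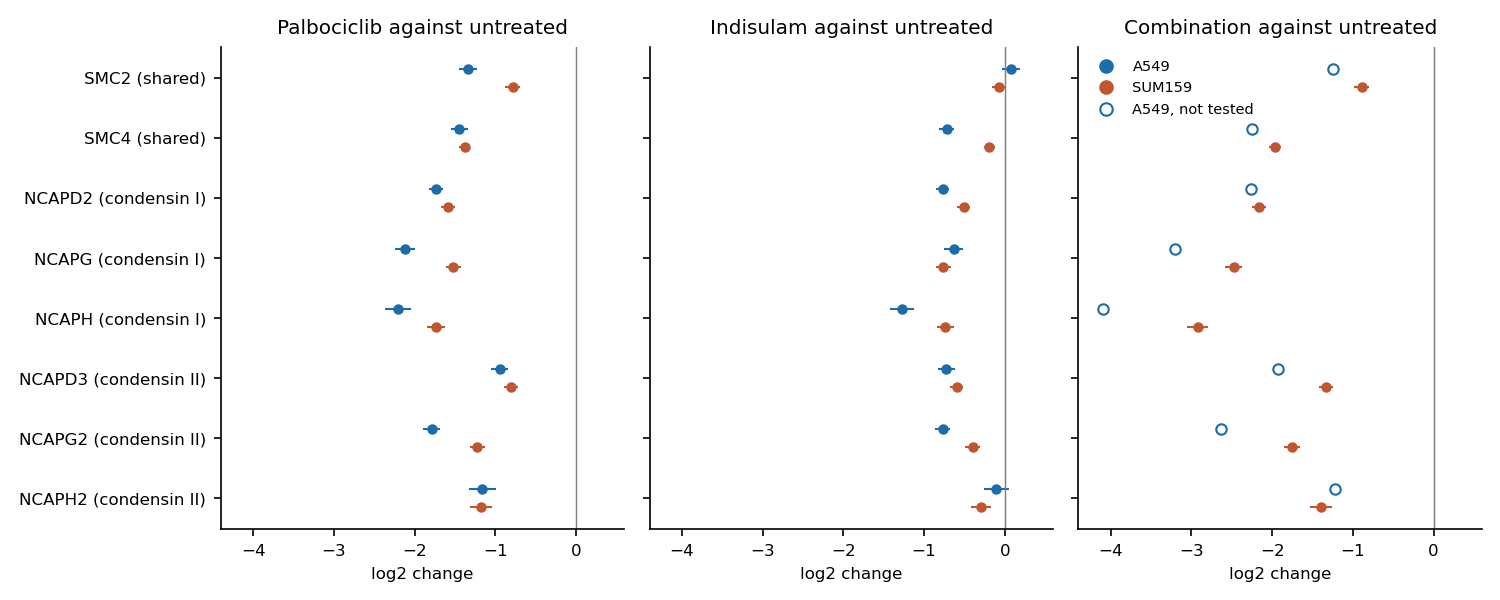
Log2 change of each subunit against untreated cells with palbociclib, indisulam and the combination, from the edgeR fit of each line. Bars are 95% confidence intervals, and open circles (A549 combination) have none because that comparison was used to choose the members. With indisulam SMC2 lies near 0 in both lines and NCAPH2 in A549 only, and NCAPH reaches -4.10 in A549 and -2.93 in SUM159 with both drugs.

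With both drugs, all 8 members lay below untreated in A549. Both combination libraries were under both untreated libraries for each of them, as for 39% of all genes, and 30.4% of genes were called lower. The log2 changes were -4.10 for NCAPH, -3.20 for NCAPG, -2.63 for NCAPG2, -2.26 for NCAPD2, -2.25 for SMC4, -1.92 for NCAPD3, -1.24 for SMC2 and -1.22 for NCAPH2, with a median of -2.26 against 0.00 over all genes. These are descriptions, since they chose the family. In SUM159 the same comparison was tested and 8 of 8 were called lower, against 33.1% of genes, with a median of -1.86 against 0.01. The largest falls were those of NCAPH (-2.93, SE 0.0606, adjusted p = 1.99e-16), NCAPG (-2.48, SE 0.0491), NCAPD2 (-2.16, SE 0.0418) and SMC4 (-1.96, SE 0.0348). NCAPG2 (-1.75, SE 0.0460), NCAPH2 (-1.39, SE 0.0648) and NCAPD3 (-1.33, SE 0.0402) of condensin II came after them, and SMC2 had the smallest change (-0.89, SE 0.0427, adjusted p = 9.26e-12). Scaling by total counts made each of these SUM159 falls smaller by about 0.15, the shift of the median of all genes, and 8 of 8 remained called.

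The combination was next set against each drug alone. Against indisulam alone, all 7 members tested in A549 were lower, against 20.1% of genes, from -2.57 for NCAPG (SE 0.0694, adjusted p = 5.07e-13) to -1.12 for NCAPH2 (SE 0.0789), and NCAPH, not tested, was at -2.82. In SUM159 8 of 8 were lower, against 28% of genes, from -2.19 for NCAPH (SE 0.0626, adjusted p = 1.88e-14) to -0.73 for NCAPD3 (SE 0.0406).

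Against palbociclib alone, 5 of 7 members were lower in A549, against 27.8% of genes. NCAPG (-1.08, SE 0.0760, adjusted p = 3.96e-08) and NCAPD3 (-0.98, SE 0.0565, adjusted p = 5.24e-09) had the largest falls, and NCAPG2 (-0.85), SMC4 (-0.80) and NCAPD2 (-0.53) came after them. NCAPH, not tested, was at -1.89. SMC2 (0.10, 95% CI -0.02 to 0.22, adjusted p = 0.169) and NCAPH2 (-0.06, 95% CI -0.24 to 0.12, adjusted p = 0.578) did not pass. Without the first palbociclib library, SMC2 was called higher at 0.17 (adjusted p = 0.0392). In SUM159 7 of 8 were lower, against 24.9% of genes. NCAPH (-1.19, SE 0.0674, adjusted p = 5.46e-10) and NCAPG (-0.96, SE 0.0520) led, SMC4, NCAPD2, NCAPG2 and NCAPD3 lay between -0.58 and -0.53, and NCAPH2 was at -0.21 (SE 0.0689, adjusted p = 0.0171). SMC2 was at -0.11 (95% CI -0.20 to -0.02, adjusted p = 0.0511). The last 2 calls depended on single libraries. NCAPH2 lost its call without the second palbociclib library (-0.16, adjusted p = 0.123) or the first combination library (-0.14, adjusted p = 0.222), and SMC2 gained one in 5 of 8 fits that left out a library, with adjusted p of 0.0240 to 0.0469.

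Whether the 2 drugs added up was tested as how far the log2 change of the combination departed from the summed changes of palbociclib and indisulam, with values below 0 for a fall larger than the sum. In SUM159, 2 of 8 members fell by more than the sum, against 2.16% of genes, and 0 fell by less, against 2.22%. NCAPH departed by -0.45 (SE 0.0846, adjusted p = 0.00640), with -2.93 against a sum of -2.47. SMC4 departed by -0.39 (SE 0.0477, adjusted p = 0.000431), with -1.96 against a sum of -1.57. Both kept their call in all 15 alternative fits. The other 6 members had departures between -0.20 (NCAPG, adjusted p = 0.115) and 0.08 (NCAPH2, adjusted p = 0.700). Falls beyond the sum were not particular to condensin. They were called for 9 of 19 condensin partners (a list described below), 2 of 10 proliferation genes, 2 of 16 cohesin and 0 of 8 SMC5/6 genes. In each of these lists 0 genes fell by less. TOP2A and AURKB of the partners departed by -0.64 and -0.52, and CCNA2 of the proliferation list by -0.52, each further than NCAPH.

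In A549, NCAPG fell by more than the sum (departure -0.45, SE 0.0942, adjusted p = 0.0196), 1 of 7 members tested against 2.05% of genes. NCAPD2 fell by less than the sum (0.24, SE 0.0569, adjusted p = 0.0334), again 1 of 7, against 1.49% of genes. These 2 calls use the untreated and combination libraries whose difference led to NCAPH, so they are not free of that choice. They were also not stable to leaving out a library. NCAPG was not called without either untreated library, either indisulam library, the first palbociclib library or the first combination library (adjusted p of 0.0509 to 0.123), and NCAPD2 not without either untreated, indisulam or palbociclib library (adjusted p of 0.0602 to 0.141). SMC4 was at -0.08 in A549 (95% CI -0.23 to 0.06). NCAPH, not tested, was at -0.62, with -4.10 against a sum of -3.48. In A549 falls beyond the sum were called for 4 of 19 partners, 3 of 10 proliferation, 3 of 16 cohesin and 0 of 8 SMC5/6 genes. Cohesin had 1 gene that fell by less, and the other lists 0. ESCO2 of the cohesin list departed by -0.81.

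**Figure D3:**
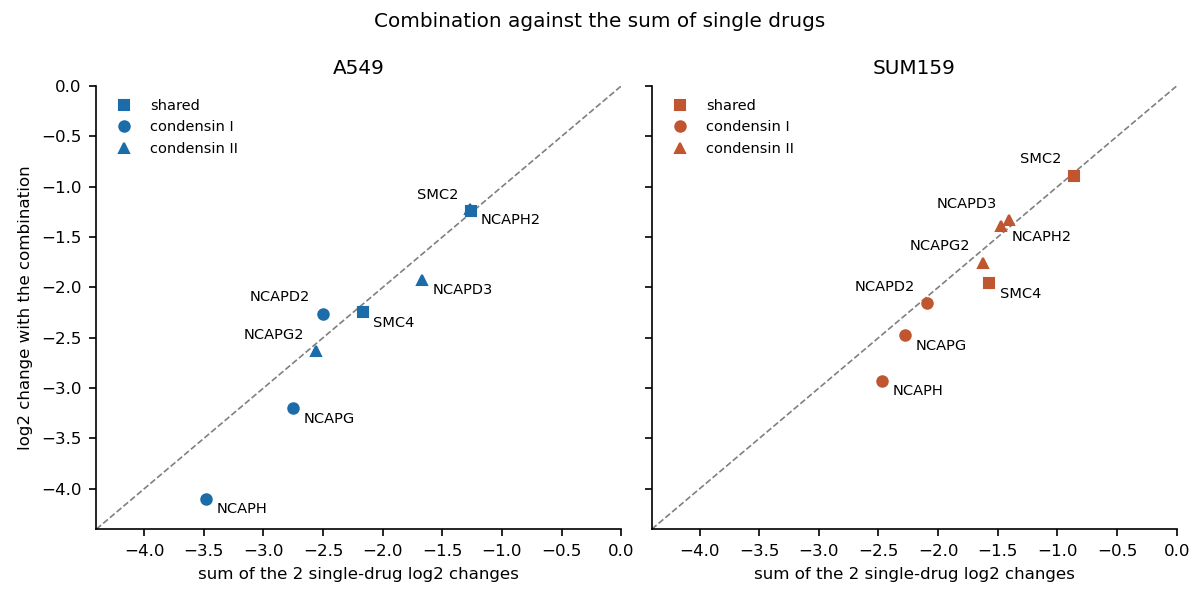
Log2 change of each subunit with the combination against the sum of its changes with palbociclib and with indisulam, in A549 and in SUM159. The dashed line is equality, and points below it fell by more than the sum. NCAPH lies 0.62 below the line in A549, where it was not tested, and 0.45 below it in SUM159.

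The lines were compared by the interaction in a fit of all 16 libraries, for the single drugs. With palbociclib 6 of 8 members were called with smaller falls in SUM159 than in A549, against 9.65% of genes. The median difference over all genes was 0.08. This fit scaled all 16 libraries together, so its differences are not those of the changes given above for each line. NCAPH2, for instance, was at -1.16 in A549 and -1.18 in SUM159 in the fits of each line, but had a difference of 0.08 here. With DESeq2 size factors in edgeR, 4 of 8 members were called. The difference, SUM159 minus A549, was 0.70 for NCAPG (SE 0.0759, adjusted p = 5.68e-07), 0.66 for NCAPG2 (SE 0.0651, adjusted p = 1.41e-07), 0.65 for SMC2 (SE 0.0692, adjusted p = 4.24e-07) and 0.57 for NCAPH (SE 0.0932, adjusted p = 0.000170). The choice of NCAPH for its fall in A549 favours a difference in this direction for that gene, with either drug. The other members followed NCAPH across the libraries, so their differences are not fully independent of the choice either. NCAPG, NCAPG2, SMC2 and NCAPH were called in all 22 alternatives. NCAPD2 (0.25, adjusted p = 0.00474) and NCAPD3 (0.24, adjusted p = 0.0121) were called in 11 and 8 of the 22 and lost the call when any of the 8 A549 libraries was left out. SMC4 (0.16, 95% CI 0.04 to 0.28, adjusted p = 0.0751) and NCAPH2 (0.08, 95% CI -0.13 to 0.29, adjusted p = 0.703) did not pass. With indisulam 4 of 8 members had smaller falls in SUM159, against 8.04% of genes, and all 4 kept their call in the 22 alternatives. They were NCAPH (0.54, SE 0.0864, adjusted p = 0.000141), SMC4 (0.53, SE 0.0577, adjusted p = 9.58e-07), NCAPG2 (0.37, SE 0.0623, adjusted p = 0.000220) and NCAPD2 (0.26, SE 0.0562, adjusted p = 0.00274). The other 4 ranged from -0.19 for NCAPH2 (95% CI -0.39 to 0.01) to 0.13 for NCAPD3. With palbociclib the condensin median was 0.41, beside 0.60 for the condensin partners listed below and 0.59 for the proliferation list. Of the partners 14 of 19 were called above 0 and 0 below, and of the proliferation list 7 of 10 and 1. Cohesin had 5 of 16 above 0 and SMC5/6 0 of 8. With indisulam the partners had 2 called above 0 and 5 below, and the proliferation list 0 and 3.

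The balance between paralogs was followed as the ratio of their CPM per kb, whose change between treatments does not depend on the lengths used. NCAPH to NCAPH2, the kleisins of condensin I and II, was 1.55 ± 0.0705 (SD, n = 2) in untreated A549, 0.748 ± 0.0325 with palbociclib, 0.693 ± 0.0371 with indisulam and 0.212 ± 0.0220 with both. In SUM159 it was 1.11 ± 0.0338, 0.761 ± 0.0936, 0.821 ± 0.0309 and 0.384 ± 0.0190. All treated libraries lay below the untreated ones, and the combination libraries lay below those of either drug. The A549 values rest on NCAPH in the libraries that led to it and are a description.

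For the HEAT-repeat paralogs NCAPG and NCAPG2, the ratio in A549 was 1.05 ± 0.0259 untreated, 0.831 ± 0.0141 with palbociclib, 1.15 ± 0.0359 with indisulam and 0.707 ± 0.0610 with both, so the indisulam libraries lay above the untreated ones. In SUM159 it was 1.32 ± 0.0440, 1.07 ± 0.0360, 1.02 ± 0.0152 and 0.797 ± 0.0710. NCAPD2 to NCAPD3 was lower with palbociclib, at 6.35 ± 0.283 against 10.996 ± 0.0582 untreated in A549 and 3.44 ± 0.172 against 5.88 ± 0.196 in SUM159. With indisulam it was 10.7 ± 0.276 in A549 and 6.24 ± 0.160 in SUM159, and with both drugs 8.68 ± 0.274 and 3.31 ± 0.0561. The shared pair SMC4 to SMC2 was 4.26 ± 0.0951, 3.95 ± 0.0660, 2.45 ± 0.127 and 2.13 ± 0.0895 in untreated, palbociclib, indisulam and combination A549. It was 1.90 ± 0.0562, 1.25 ± 0.0378, 1.75 ± 0.0284 and 0.903 ± 0.0300 in SUM159. The larger step was thus with indisulam in A549 and with palbociclib in SUM159.

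**Figure D4:**
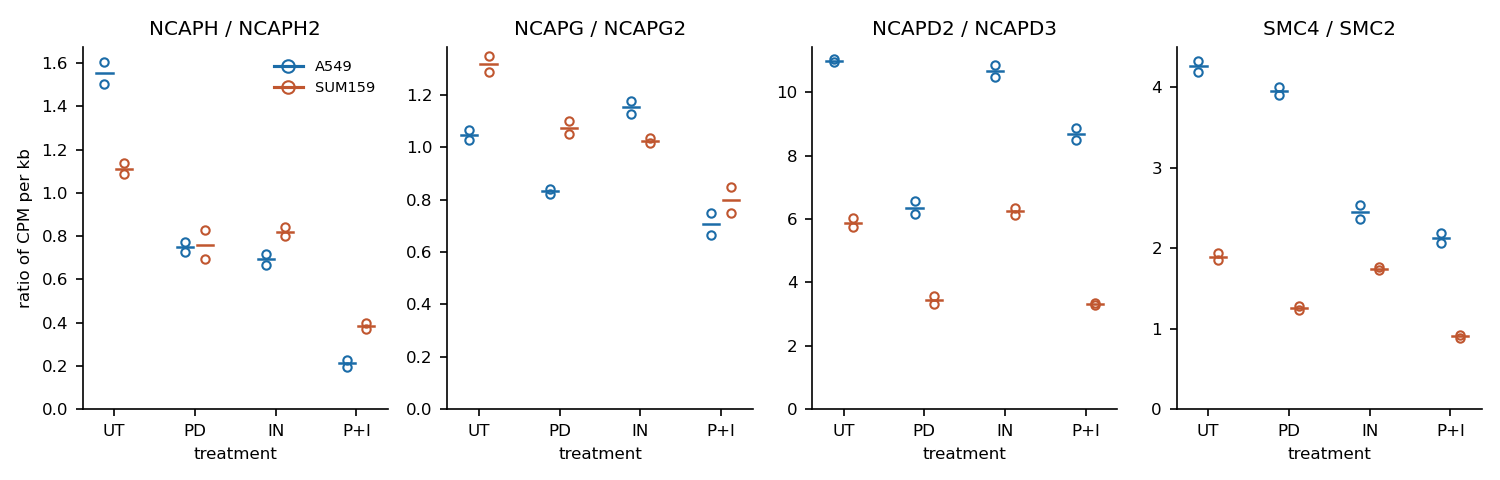
Ratio of CPM per kb between condensin paralogs (NCAPH to NCAPH2, NCAPG to NCAPG2, NCAPD2 to NCAPD3) and between the shared ATPases (SMC4 to SMC2), by treatment. Circles are libraries, bars are means of 2 libraries, and each axis starts at 0. NCAPH to NCAPH2 falls from 1.55 to 0.212 in A549 and, in SUM159, from 1.11 to 0.384.

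Other chromosome proteins were taken as lists. Cohesin, which holds sister chromatids together, was represented by 16 genes with its loaders and regulators. SMC5/6, a repair complex of the same SMC family, had 8 genes, and 19 genes act with condensin on mitotic chromosomes, among them TOP2A, which untangles DNA, and AURKB, the kinase of the chromosomal passenger complex. With palbociclib, cohesin had 14 of 16 genes lower and 0 higher in both lines, with medians of -0.86 in A549 and -0.88 in SUM159. SMC5/6 had 5 of 8 lower and 0 higher in both, with medians of -0.38 and -0.48. The condensin partners had 17 of 19 lower and 0 higher in both, with medians of -1.88 and -1.18.

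With indisulam these lists did not move one way in A549. Cohesin had 7 genes lower and 5 higher (median -0.02), SMC5/6 3 lower and 2 higher (median -0.02), and the partners 7 lower and 3 higher (median -0.01), beside 6 of 8 condensin subunits lower and 0 higher with a median of -0.72. The condensin values in A549 are not free of the choice of NCAPH, and the lists were chosen with earlier results known. In SUM159 cohesin had 6 lower and 4 higher (median -0.09), SMC5/6 2 lower and 1 higher (median 0.00) and the partners 11 lower and 0 higher (median -0.18), beside a condensin median of -0.45. The 2 genes of each list with the largest change in SUM159 with both drugs are named. Of these, TOP2A had the largest fall with indisulam, at -1.10 in A549 and -0.64 in SUM159, followed by the SMC5/6 partner SLF1, at -0.91 and -0.63. SLF2, its companion, was at -0.11 and -0.13, and did not pass in A549 (adjusted p = 0.107). AURKB was at -0.45 and -0.46, and of the cohesin list ESPL1, the separase gene, was at -0.39 and -0.40 and ESCO2, an acetyltransferase of cohesin, at -0.28 and -0.28. CCNA2 and MKI67 of the proliferation list were at -0.37 and -0.35 in A549, and at -0.22 and -0.12 in SUM159, where MKI67 did not pass (adjusted p = 0.123).

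With both drugs in SUM159, cohesin had 12 genes lower and 2 higher (median -0.92), SMC5/6 5 lower and 0 higher (median -0.37), the partners 18 lower and 1 higher (median -1.51) and the proliferation list 10 lower (median -1.98, summed level 609 to 625 CPM). The condensin median of -1.86 lay between the medians of the last 2 lists. TOP2A at -2.87 and AURKB at -2.84 were near NCAPH at -2.93. In A549 with both drugs the medians were -0.82 for cohesin, -0.40 for SMC5/6, -1.86 for the partners and -2.17 for the proliferation list, whose summed level was 535 to 538 CPM, beside the untested condensin median of -2.26.

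**Figure D5:**
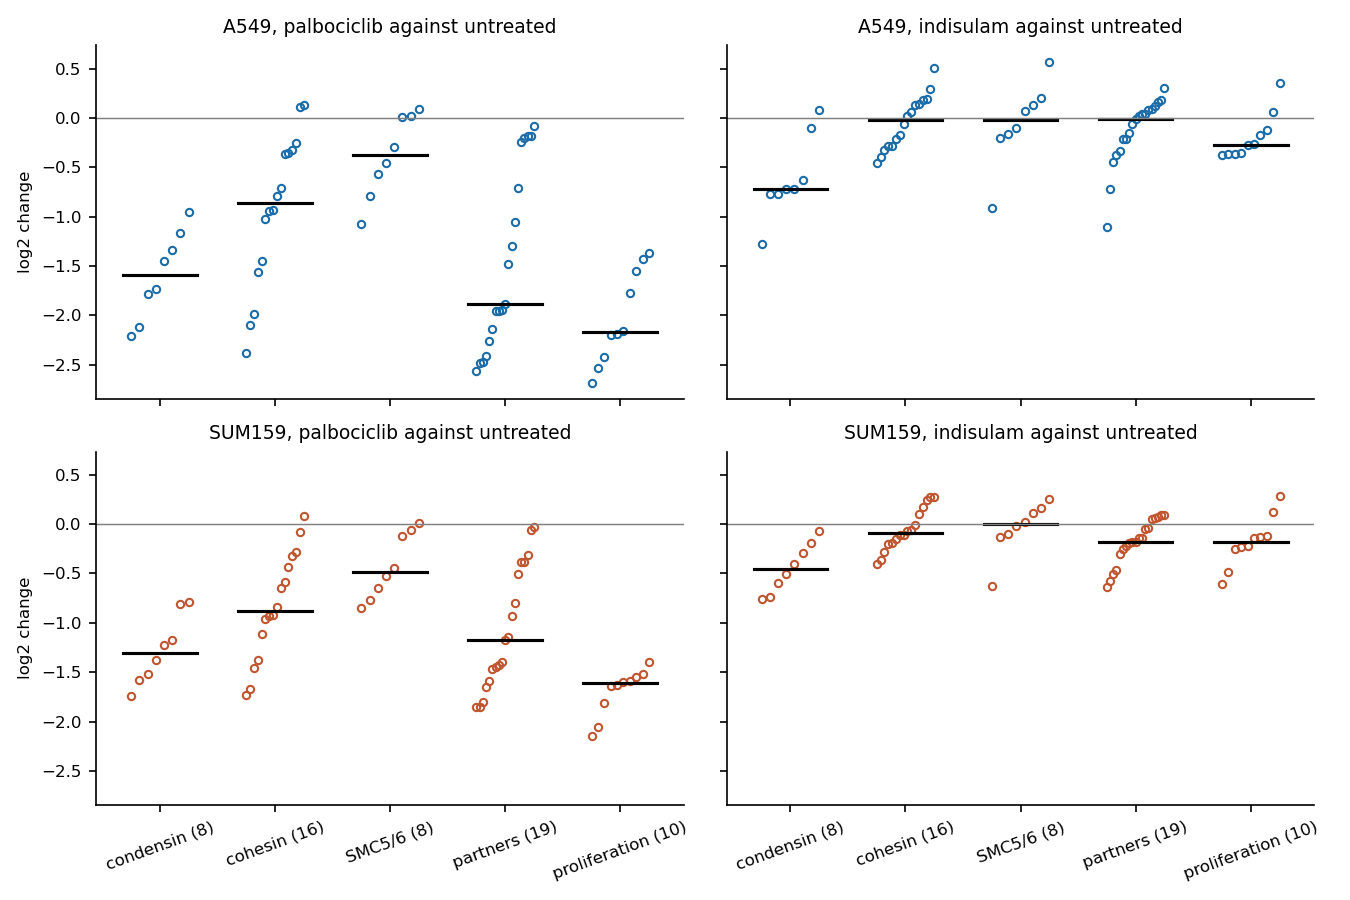
Log2 change against untreated of every gene of the condensin, cohesin, SMC5/6, condensin partner and proliferation lists, with palbociclib (left) and indisulam (right) in A549 (top) and SUM159 (bottom). Circles are genes in order of their change, and black bars are medians. With indisulam in A549 the condensin median lies at -0.72 while those of cohesin, SMC5/6 and the partners lie at -0.02 to -0.01. The A549 condensin values share the untreated libraries with the comparison that led to NCAPH.

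Across the 16 libraries, with log2 CPM centred within each line, the members followed each other with Pearson r of 0.765 (SMC2 with NCAPD3) to 0.992 (NCAPG with NCAPG2) and a median of 0.956 over 28 pairs. These points share their libraries and the 4 treatments, so r describes the common pattern only. Among the 10986 genes that averaged 5 CPM or more, the pattern of NCAPH was most like those of ATAD2 (r = 0.997), TOP2A (0.996), C1orf112 (0.995), ASF1B (0.994) and KNL1 (0.993). The pattern of NCAPH2, its condensin II counterpart, was most like those of SLF2 (0.995), LIG1 (0.994), RRM1 (0.993), RBBP7 (0.993) and SUV39H1 (0.992). The lists of the 2 kleisins had no gene in common.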

How the data were processed

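Poly(A) RNA was made into stranded libraries. The deposited values are raw counts per Ensembl gene, 1 file per library, not normalized or pooled. Per the labels' processing notes the authors aligned reads to GRCh38 with HISAT2 2.2.1 and named HTSeq. The strand setting and annotation release are not given in the sources used here. Rows of reads not assigned to a single gene, 13.2% to 16.4% per library, were left out. They include reads in no feature (3.89% to 6.78%), ambiguous reads (4.38% to 5.62%) and reads whose alignment was not unique (4.25% to 5.25%). Of 58676 identifiers 58207 matched GENCODE 44. Floors reflect counting error alone, because copies made by PCR are not independent.

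Each line's 8 libraries were fitted with edgeR 4.0.16 in R 4.3.3 (TMM, filterByExpr, quasi-likelihood test, adjustment by Benjamini and Hochberg over all genes, two-sided). SE was derived from the log2 change and the F value. The fits were tested on simulated data, where edgeR made more false calls than its threshold allows with indisulam in A549, DESeq2 fewer, and both missed some changed genes. DESeq2 1.42.0 was an alternative, as were other scalings, filters, a replicate block and leaving out each library. Duplicate libraries differed from each other beyond counting noise in every group.

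Named genes were all 8 members in each comparison, the 2 called genes per list with the largest change in SUM159 with both drugs, and the 5 genes most like each kleisin. One list symbol, M18BP1, was matched through its current name. The members and lists were chosen with earlier results of these data known.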

Additional observations from a re-analysis of the deposited data

Results flagged for a closer look

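The change with a drug differed between the lines, by the interaction test in edgeR over 16 libraries, for 6 members with palbociclib and 4 with indisulam. Values are SUM159 minus A549 on the log2 scale, so that a value above 0 is a smaller fall in SUM159. They come from a fit that scaled all 16 libraries together. In that fit the median difference over all genes was 0.08 with palbociclib and 0.02 with indisulam. With palbociclib the differences were 0.65 for SMC2, 0.25 for NCAPD2, 0.70 for NCAPG, 0.57 for NCAPH, 0.24 for NCAPD3 and 0.66 for NCAPG2. With indisulam they were 0.53 for SMC4, 0.26 for NCAPD2, 0.54 for NCAPH and 0.37 for NCAPG2. The palbociclib difference was not particular to condensin. It was called above 0 for 14 of 19 condensin partners (median 0.60) and 7 of 10 proliferation genes (median 0.59). The 4 palbociclib values above 0.5 and all 4 indisulam values were called in each of 22 alternatives. NCAPD2 and NCAPD3 with palbociclib were not, with ranges of 0.04 to 0.29 and 0.06 to 0.27. For NCAPH the untreated A549 libraries had a part in its choice, which favours a larger fall in A549. The other members followed NCAPH across the libraries, so their differences are not fully independent of that choice either. The difference between lines was not tested for the combination, whose change in A549 chose the members. With 2 libraries per group, single libraries could not be tested as outliers.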

How the results depend on the processing

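Over the alternatives that kept all libraries, each count of called members stayed within 1.5 times its value and no call of a member against untreated cells was lost. With total counts the A549 combination median was -2.17 in place of -2.26, and the median of all genes moved by 0.15 in SUM159 with both drugs and by 0.11 with palbociclib. Leaving out 1 library gave a range of 0 to 2 members for the A549 departure from additivity (2 with all libraries): 0 without either untreated or indisulam library or the first palbociclib library, and 1 without the second palbociclib or first combination library. It gave 4 to 6 members for the palbociclib difference between lines, 6 to 8 for SUM159 combination against palbociclib, and 5 to 6 for the same in A549. The palbociclib difference between lines of NCAPH2 (0.08) turned to -0.020 with DESeq2 size factors in edgeR, -0.018 in DESeq2's Wald test and -0.025 with at least 10 counts in every library. With 1 library left out it ran from -0.16 to 0.13, and that of SMC4 from -0.042 to 0.17. NCAPH2 in A549 combination against palbociclib ran from -0.11 to 0.028. Departures from additivity ran from -0.015 to 0.13 for NCAPH2 and -0.054 to 0.084 for SMC2 in A549, and from -0.083 to 0.013 for SMC2 in SUM159. None of these was called, and the causes were not tested.

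Other calls moved as follows. Under total counts NCAPH2 in SUM159 combination against palbociclib was at -0.17 (adjusted p = 0.0526), and SMC2 was called there with DESeq2 size factors (-0.12, adjusted p = 0.0406) and without a filter (-0.13, adjusted p = 0.0283). Replicate numbers are shared between groups but did not pair libraries, since same-numbered libraries had correlations of -0.199 to 0.195 over 12 pairs of groups. With the replicate number as a block, each count of called members was the same as without it, for instance 8 with palbociclib in each line, 8 with both drugs in SUM159 and 6 and 4 for the differences between lines, and the A549 combination median was -2.26. Paralog ratios and levels between genes depend on the length used, whereas their changes between treatments do not. NCAPH, at 4.05 to 4.92 CPM in A549 with both drugs, was far above the 3-count floor. A lone library in a group was assumed to vary like the other groups.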
